A study of Mus musculus with 6 samples.

Results

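The matrix metalloproteinases (Mmps) and tissue inhibitors of metalloproteinases (Timps) form a family of 10 genes here, out of 18193 genes named on the array: the metalloproteinases Mmp2, Mmp3, Mmp9, Mmp10, Mmp11, Mmp13 and Mmp14 and the inhibitors Timp1, Timp2 and Timp3. They were taken by symbol, with every probe set that the platform annotation assigns to the gene alone, which gave 22 probe sets. RNA was measured in dermal fibroblasts of B6 mice aged 0 to 2 days, of mixed sex, grown out of skin explants and used at passage 4. The treated group (n = 3) had received 5 µM 5-aza-2'-deoxycytidine during 96 hours, as a fresh dilution every 24 hours, followed by 24 hours in medium without drug. The control group (n = 3) was left untreated, and no vehicle is named in the labels. The drug, also known as decitabine, is incorporated into replicating DNA, where it binds DNA methyltransferases covalently and lowers methylation. Explants were set up separately for each biological replicate, and the number of animals behind a culture is not given in the labels.

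Mmps are zinc-dependent endopeptidases that cut collagens, proteoglycans and other matrix proteins, and most are secreted as inactive precursors whose propeptide has to be removed. Timps bind the active site of Mmps and block them, and Timp2 also takes part in the activation of pro-Mmp2 by Mmp14 at the cell surface. In skin, fibroblasts produce Mmps and Timps during growth, wound repair and ageing. Transcription of several secreted Mmps is known to respond to AP-1, a dimer of Jun and Fos family proteins. The arrays measured transcripts, not enzyme activity.

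The 2% trimmed mean of the deposited signals lay between 149.2 and 209.4 on treated arrays and between 179.1 and 223.9 on control arrays, and every array was scaled to 193.2 signal units. Across genes, Pearson's r of log2 signals was at least 0.972 for arrays of the same group and at most 0.883 for a treated and a control array. For Actb, the signal of the 3' control probe set over that of the 5' one, which reflects RNA quality, was 1.16 ± 0.019 on treated arrays and 1.26 ± 0.010 on control arrays (SD, n = 3; two-sided exact permutation p = 0.1, which is the smallest possible here). The ratio of Gapdh went the other way, at 0.764 ± 0.024 on treated and 0.739 ± 0.016 on control arrays (two-sided exact permutation p = 0.2). The 12 fibroblast markers chosen were all on the array, and 0 of them lay below the array median on all 6 arrays. Their summed signal was 32157 to 38641 on treated and 59726 to 66186 on control arrays. The intermediate filament Vim changed by 0.13 ± 0.083 (SE; limma adjusted p = 0.242).

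All 10 genes of the family passed the test, 6 of them higher and 4 lower in treated cultures. The members were chosen with earlier results of these data known, so this count cannot show that the family differs from other genes. Of 6 other Mmp genes tested, 2 were not called. Across the array 41.1% of the 12194 tested genes were called, 19.5% higher and 21.6% lower, by the same test, which is limma on log2(signal + 9.66) with an adjusted p under 0.05. These shares are also the background for the counts of lists, markers and flanking genes below. The family genes that rose were Mmp3, Mmp9, Mmp10 and Mmp13 among the proteases and Timp1 and Timp2 among the inhibitors. Those that fell were Mmp2, Mmp11 and Mmp14 and the inhibitor Timp3. In each of the 10 genes the brightest probe set had no overlap between treated and control arrays, which held for 52.5% of all tested genes. The median log2 change over the 10 genes was 0.87, against 0.00 over all genes tested. A fold in log2 below is treated minus control on this scale, and it understates changes of dim probe sets.

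**Figure D1:**
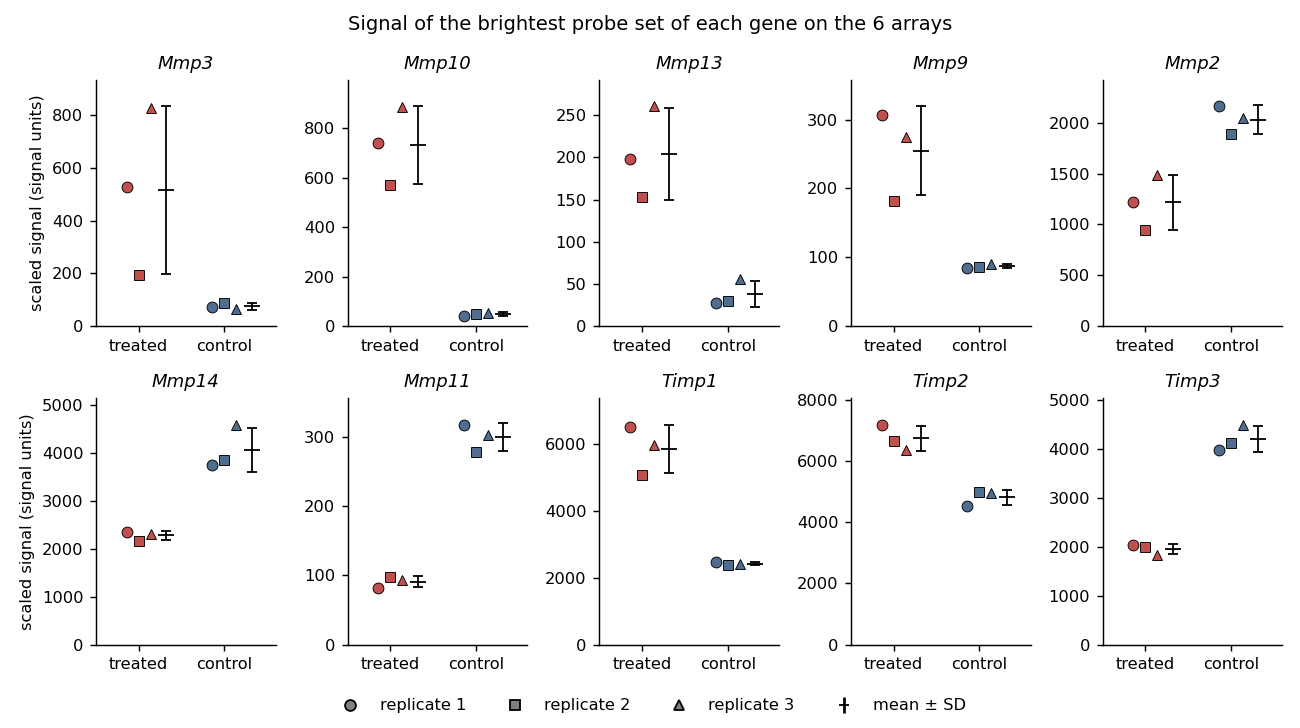
Scaled signal (vertical axes, signal units, from 0, a separate scale for each gene) of the brightest probe set of the 10 genes, with 3 treated arrays on the left and 3 control arrays on the right of each panel. Symbols mark the replicate numbers and bars the mean ± SD. The groups are separate in all 10 panels, and treated replicate 2 is the lowest treated array for Mmp3, Mmp10, Mmp13 and Mmp9.

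Of the 22 probe sets, 20 passed the filter on low signal (above the array median on at least 3 arrays) and were tested. There were 6 calls of higher and 10 of lower signal, and the remaining 4 tested probe sets belonged to Timp2. A single probe set, that of Mmp10, lay below the array median on all 3 controls and passed the filter through the treated arrays alone. The probe sets that did not pass were the dimmer one of Mmp9 and the dimmest of Timp2. Among all tested probe sets 38.7% were called, 18.4% higher and 20.3% lower. Groups did not overlap in 16 of the 20 probe sets, against 50.4% of all tested ones.

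**Figure D2:**
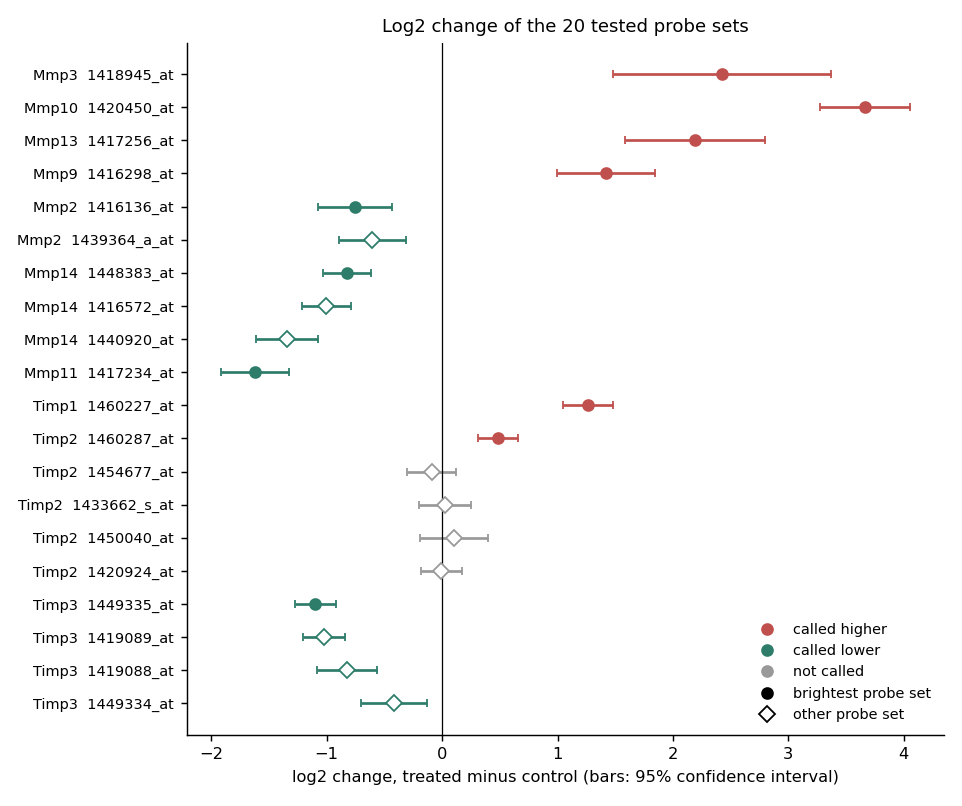
Log2 change, treated minus control (horizontal axis), of the 20 tested probe sets with 95% confidence intervals, filled circles for the brightest probe set of a gene and open diamonds for the others. Probe sets of Mmp2, Mmp14 and Timp3 lie on the same side of 0, whereas 4 of the 5 tested probe sets of Timp2 have intervals that include 0.

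The 3 rising proteases with the highest changes, Mmp10, Mmp3 and Mmp13, lie in the Mmp gene cluster of mouse chromosome 9, with Mmp12 and Mmp1b between Mmp13 and Mmp3, and Mmp1a between Mmp3 and Mmp10. Mmp10 (stromelysin-2), which cuts proteoglycans, fibronectin and other non-fibrillar matrix proteins, had signals of 740, 572 and 886 on treated arrays 1 to 3, against 40.9, 49.96 and 53.8 on control arrays 1 to 3. The lowest treated array was thus far above the highest control. The log2 change was 3.66 ± 0.17 (SE, n = 3 each; limma adjusted p = 5.19e-07). Its size depends on a control level that could not be separated from background, as also for Mmp8, Serpinb2 and Il1a below, and it is no exact fold. Within the arrays Mmp10 stood between the 89.5 and 93.1 percentile of all probe sets in treated cultures and between the 44.8 and 49.7 percentile in controls.

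Mmp3 (stromelysin-1), which has a similar substrate range and also activates other pro-Mmps, had signals of 528, 193 and 829 on treated arrays 1 to 3, against 72.6, 88.8 and 63.3 on control arrays. All 3 treated arrays were above all controls, but they differed among themselves by 4.302 times, a wider spread than that of the brightest probe set of any other family gene. The log2 change was 2.42 ± 0.42 (SE, n = 3 each; limma adjusted p = 0.00147). Without treated replicate 2 it was 3.00, and without treated replicate 3 it was 1.98, and it was called in both cases. Mmp13, the collagenase of mouse fibroblasts, cuts the triple helix of fibrillar collagens. Its signal was 198, 153 and 261 in treated and 27.6, 29.99 and 55.7 in control cultures, again with no overlap. The log2 change was 2.19 ± 0.27 (SE; adjusted p = 0.000196).

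The 3 genes shared features of their promoters. The windows searched ran from 250 bases before to 50 bases after the annotated gene start (RefSeq, GRCm38.p6). Each of the 3 held the AP-1 letters TGACTCA or their reverse complement TGAGTCA, and the letters TATAAA downstream of them. The windows of Mmp3 (chr9:7445572-7445871, plus strand), Mmp10 (chr9:7502092-7502391, plus strand) and Mmp13 (chr9:7272264-7272563, plus strand) are shown to place these letters, which are in capitals, 5′ to 3′.
Mmp3: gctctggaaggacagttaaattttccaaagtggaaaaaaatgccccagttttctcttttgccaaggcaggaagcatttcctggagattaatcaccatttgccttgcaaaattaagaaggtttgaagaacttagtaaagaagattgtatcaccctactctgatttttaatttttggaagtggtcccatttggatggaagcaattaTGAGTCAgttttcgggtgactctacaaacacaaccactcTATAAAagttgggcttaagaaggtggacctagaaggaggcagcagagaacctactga
Mmp10: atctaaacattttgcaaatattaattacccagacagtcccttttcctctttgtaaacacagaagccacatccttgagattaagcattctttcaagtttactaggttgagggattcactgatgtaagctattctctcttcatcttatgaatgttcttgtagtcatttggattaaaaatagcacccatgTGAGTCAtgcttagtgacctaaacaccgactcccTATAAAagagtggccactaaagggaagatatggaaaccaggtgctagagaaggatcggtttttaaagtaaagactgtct
Mmp13: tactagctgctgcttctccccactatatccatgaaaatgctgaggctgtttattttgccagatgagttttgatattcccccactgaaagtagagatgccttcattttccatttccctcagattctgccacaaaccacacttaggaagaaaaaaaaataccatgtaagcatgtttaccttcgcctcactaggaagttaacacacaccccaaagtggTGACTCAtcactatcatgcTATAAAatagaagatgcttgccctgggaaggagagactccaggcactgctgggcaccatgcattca
The AP-1 letters began 46, 63 and 35 bases before the annotated start of Mmp3, Mmp10 and Mmp13. The letters TATAAA began 7, 29 and 16 bases before it, in the same order.

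The search covered both strands of 32851 promoter windows, of which 5.20% held the AP-1 letters, 13.6% the letters TATAAA or their reverse complement TTTATA, and 0.941% both. The table matched 8 of the 10 genes, all but Mmp2 and Mmp9. The AP-1 and TATA letters were found in 0 of the windows of Mmp11, Mmp14, Timp1, Timp2 and Timp3. Genes that held both motifs can be set beside the family as a description, made after the values were seen. Among 54 tested genes with both sets of letters outside the family, 38.9% were called higher and 5.56% lower, whereas over all 9848 tested genes with a window 19.6% were higher and 21.4% lower. Without the filter on low signal, and with the family included, 21.5% of 107 genes with both were higher and 3.74% lower, when 12.4% of all 14452 genes with a window were higher and 13.1% lower. The Ets letters AGGAAG or CTTCCT were also searched, and were in the windows of Mmp3, Mmp13, Mmp14, Timp1 and Timp3 and in 35.4% of all windows. A match shows letters in a window and not a bound site. Variants of these letters were not searched, so a window without a match may still hold a related site.

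The promoters of the family also differed in content of CpG, the dinucleotide at which most mammalian DNA methylation lies. The methylation of these promoters was not measured on the arrays. The windows of Mmp3 and Mmp13 held 1 CpG each and that of Mmp10 held 2, against a median of 7 over all windows. Timp1 had 8 CpGs, Mmp14 had 10, Mmp11 had 19, Timp3 had 24 and Timp2 had 25. The windows of Timp1 (chrX:20869916-20870215, plus strand), which rose, and of Timp3 (chr10:86300162-86300461, plus strand), which fell, are printed for comparison with their CpGs in capitals, 5′ to 3′.
Timp1: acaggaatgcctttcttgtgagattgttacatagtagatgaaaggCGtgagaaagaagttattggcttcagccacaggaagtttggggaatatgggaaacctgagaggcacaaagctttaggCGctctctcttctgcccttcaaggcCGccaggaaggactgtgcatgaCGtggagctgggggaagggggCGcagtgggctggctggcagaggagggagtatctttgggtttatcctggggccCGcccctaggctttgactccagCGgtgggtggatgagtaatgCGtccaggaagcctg
Timp3: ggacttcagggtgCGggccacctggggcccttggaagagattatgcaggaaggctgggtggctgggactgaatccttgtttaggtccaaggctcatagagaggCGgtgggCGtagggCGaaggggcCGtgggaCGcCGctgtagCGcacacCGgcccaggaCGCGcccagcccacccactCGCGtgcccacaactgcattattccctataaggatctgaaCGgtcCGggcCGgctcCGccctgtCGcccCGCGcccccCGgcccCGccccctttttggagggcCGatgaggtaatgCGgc
Among tested genes with 5 or fewer CpGs in the window, 18.4% of 1174 were called higher and 14.5% lower, and among those with more, 19.7% of 8674 were higher and 22.3% lower.

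**Figure D3:**
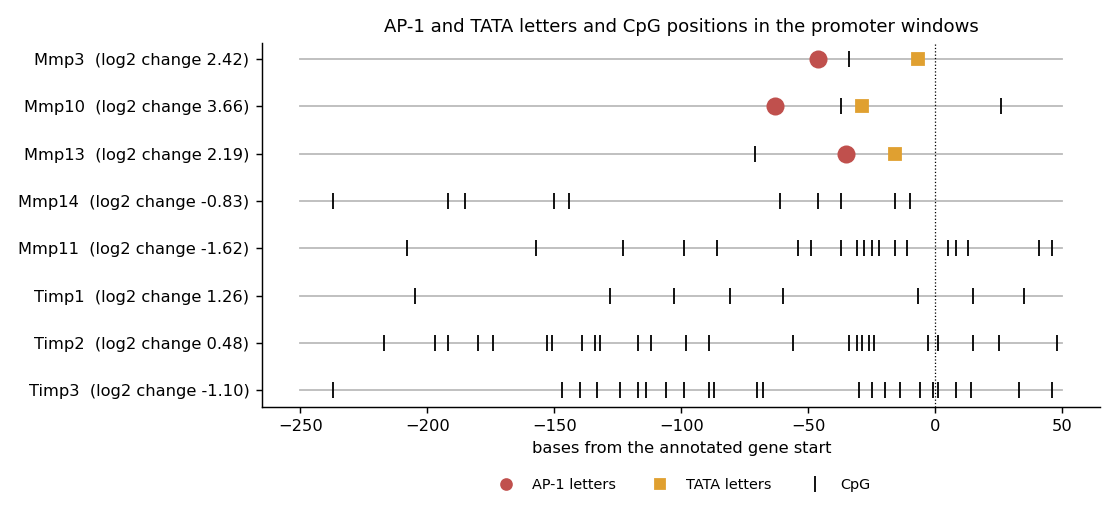
Positions of AP-1 letters (circles), TATA letters (squares) and CpGs (ticks) in bases from the annotated gene start for the 8 genes with a promoter window, with the log2 change of each gene beside its name. AP-1 and TATA letters lie in the windows of Mmp3, Mmp10 and Mmp13, and these windows hold 1 or 2 CpGs.

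The rest of the chromosome 9 cluster was dim. Of its 10 Mmp genes 9 were on the array and 4 were tested, and all 4 were called higher. Because Mmp10 and Mmp8 passed the filter through treated arrays alone, this count could not have included them otherwise. The fourth was Mmp8, the collagenase of neutrophils, with signals of 83.5, 64.0 and 86.5 in treated and 5.44, 33.7 and 43.8 in control cultures. Its log2 change was 1.41 ± 0.45 (SE; limma adjusted p = 0.0337), and the call was lost on leaving out treated replicate 1, 2 or 3 (adjusted p from 0.0535 to 0.0971), with no filter (0.0686) or with a smaller pseudocount (0.0512). Mmp12, the macrophage elastase, did not pass the filter. In the fit with no filter it had 73.9, 45.1 and 54.8 in treated against 20.4, 6.58 and 13.2 in control cultures, a log2 change of 1.57 ± 0.34 (adjusted p = 0.0119). That fit called 12.2% of 18193 genes higher and 13.0% lower. In that fit Mmp1a (log2 change 0.99, adjusted p = 0.170), Mmp1b (0.85, adjusted p = 0.0911), the enamel protease Mmp20 (-0.17, adjusted p = 0.857) and the epithelial matrilysin Mmp7 (-0.34, adjusted p = 0.747) did not pass the test. AP-1 letters, together with TATA letters, were also found in windows of Mmp12, Mmp1a, Mmp1b and Mmp7 that held 0 to 3 CpGs. The combination was thus not particular to Mmp3, Mmp10 and Mmp13 within the cluster. A second window of Mmp12 and a second one of Mmp7 held neither. Windows of Mmp8, Mmp20 and Mmp27 held no AP-1 letters, and those of Mmp8 and Mmp20 held TATA letters.

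Genes that flank the cluster moved in both directions. Of the 10 genes on either side, 9 were tested, 2 were higher and 3 lower. Over all tested genes 19.5% were higher and 21.6% lower. On the side of Mmp13 the nearest tested gene was Dcun1d5, a cullin neddylation factor, with a log2 change of 0.04 ± 0.086 (SE; limma adjusted p = 0.721). On the side of Mmp7 it was the membrane protein Tmem123, with -0.04 ± 0.094 (adjusted p = 0.755). Farther out the apoptosis inhibitor Birc3 fell by 0.76 and Birc2 by 0.38, the dynein heavy chain Dync2h1 fell by 0.42, and the cilium genes Cfap300 (0.92) and Cep126 (1.38) were higher. The calls of Birc2, Dync2h1 and Cep126 were each lost on leaving out treated replicate 1 (adjusted p = 0.0836, 0.0937 and 0.0776) or treated replicate 2 (adjusted p = 0.0837, 0.0642 and 0.0855). Those of Dync2h1 and Cep126 were also lost without treated replicate 3 (adjusted p = 0.0679 and 0.125), that of Birc2 without control replicate 1 (0.0609) or 2 (0.0585), and that of Dync2h1 without control replicate 2 (0.113) or 3 (0.0679).

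**Figure D4:**
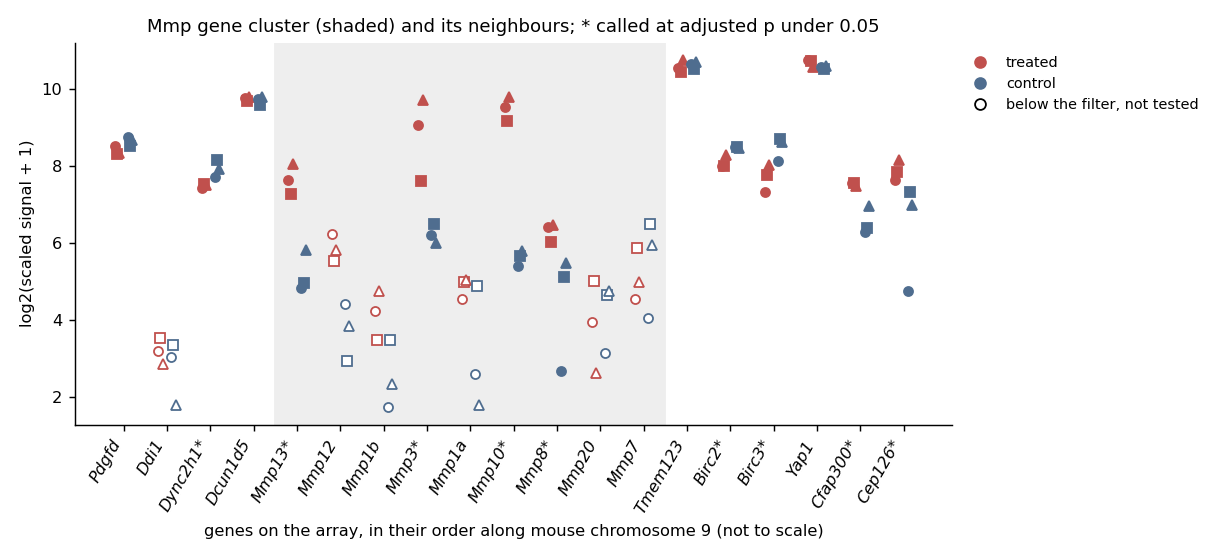
log2(scaled signal + 1) on the 3 treated (left) and 3 control arrays (right) for genes on the array, in their order along chromosome 9, with the Mmp cluster shaded and open symbols for genes below the filter. Treated and control arrays separate at Mmp13, Mmp12, Mmp3, Mmp10 and Mmp8 within the cluster and at the flanking Dync2h1, Birc2, Birc3, Cfap300 and Cep126, and they overlap at Dcun1d5 and Tmem123, among others.

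Mmp9 (gelatinase B), which degrades denatured collagen and basement membrane collagen, lies outside the cluster on chromosome 2. Its brighter probe set read 307, 182 and 275 in treated against 85.0, 86.3 and 90.2 in control cultures. The controls were nearly equal and all treated arrays were above them, with a log2 change of 1.42 ± 0.19 (SE, n = 3 each; limma adjusted p = 0.000317). The dimmer probe set read 101, 20.5 and 151 against 29.2, 13.9 and 31.9, with overlap through treated replicate 2, and it did not pass the test without the filter (1.27 ± 0.58; adjusted p = 0.187).

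Mmp8, Mmp9 and Mmp12 are also products of leukocytes. Of the 15 leukocyte and macrophage markers on the array 10 were tested, and 1 was called higher and 0 lower. The riser was the lysosomal protein Cd68, with 107, 121 and 111 in treated and 37.7, 73.4 and 40.3 in control cultures (log2 change 1.08; adjusted p = 0.00703). A second marker was called higher on leaving out 1 array, Csf1r without treated replicate 1 (adjusted p = 0.0368), Lyz1 without control replicate 1 (0.0440) and Fcer1g without treated replicate 2 (0.0260) or control replicate 2 (0.0457). With no intensity trend Laptm5 (-0.34, adjusted p = 0.0491) and Spi1 (-0.45, adjusted p = 0.0282) were called lower, and Fcer1g higher (adjusted p = 0.0488). With the replicate number as a block Csf1r was called higher (adjusted p = 0.0290). These calls and the count are for the brightest probe set. Over all 6 arrays the dimmest probe set of Csf1r was called higher (0.56; limma adjusted p = 0.0431), and its remaining one was not called (0.07; adjusted p = 0.823). The summed signal of the 15 markers was 1310 to 1608 in treated and 1140 to 1290 in control cultures. The pan-leukocyte phosphatase Ptprc, the integrin Itgam, Cd52 and Cx3cr1 lay below the array median on all 6 arrays. Of 9 neutrophil and mast cell markers 3 were tested and 0 were called (with no filter, S100a8 was higher, at 36.1, 54.2 and 54.7 against 7.94, 5.07 and 4.68). The part of such cells in the change of Mmp9 was not tested. In bulk samples, fewer cells of a type and less RNA per cell cannot be told apart.

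The proteases that fell were Mmp2, Mmp14 and Mmp11. Mmp2 (gelatinase A), which fibroblasts secrete in quantity and which Mmp14 activates, read 1219, 950.2 and 1489 in treated against 2166, 1887 and 2048 in control cultures. Each treated array was below each control, with a log2 change of -0.75 ± 0.14 (SE, n = 3 each; limma adjusted p = 0.00261). Its other probe set gave -0.61 ± 0.13 (adjusted p = 0.00469).

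Mmp14, a membrane-anchored Mmp that cuts fibrillar collagen at the cell surface, read 2354, 2168 and 2317 in treated against 3741, 3859 and 4595 in control cultures. Its 3 probe sets fell by 0.83, 1.00 and 1.34 on the log2 scale, from the brightest to the dimmest, with adjusted p-values from 2.69e-05 to 0.000100. The direction was thus shared while the size differed among the probe sets. Mmp11 (stromelysin-3), which is furin-activated inside the cell and cuts few matrix proteins, read 81.7, 98.3 and 93.0 in treated against 318, 279 and 303 in control cultures. The mean was 0.303 times that of controls, a log2 change of -1.62 ± 0.13 (adjusted p = 1.31e-05), and 2.47% of all tested genes had a lower change.

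Fibroblast markers fell alongside these proteases. Of the 12 tested 10 fell and 1 rose (S100a4, 0.74). Col1a1 changed by -1.70 ± 0.11 (SE), Col3a1 by -1.79 ± 0.097 and the receptor Pdgfra by -3.21 ± 0.18. The part of this shift in the lower Mmp2, Mmp11, Mmp14 and Timp3 was not tested.

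Markers of other cells that skin explants could hold also differed between the groups. The summed signal of 12 keratinocyte markers was 868 to 1230 in treated and 540 to 792 in control cultures, and 2 of 6 tested were higher and 0 lower. These were the cornified envelope protein Ivl, at 208, 164 and 166 in treated against 4.23, 4.53 and 2.95 in control cultures (limma adjusted p = 7.55e-06), and the desmosome protein Dsp, at 319, 386 and 124 against 16.7, 37.5 and 23.4 (adjusted p = 0.000321). Both passed the filter through treated arrays alone, so this count could not have included them as lower. The other probe set of Ivl read 2.59, 4.74 and 5.35 in treated against 1.47, 3.24 and 2.85 in control cultures and did not pass the filter. A dimmer one of Dsp was called higher (3.05; limma adjusted p = 0.000425), also through treated arrays alone. The signals of Ivl and Dsp given first are part of the summed signal of the keratinocyte markers. The keratinocyte keratins Krt14, Krt15 and Krt1, with Trp63 and Cdh1, lay below the array median on all 6 arrays. The keratins Krt5 (0.44, adjusted p = 0.413) and Krt10 (-0.02, adjusted p = 0.964) were tested and not called. Skeletal muscle markers summed to 543 to 656 in treated and 356 to 442 in control cultures, with 2 of 3 tested higher (Des and Chrna1) and 0 lower, and the muscle regulators Myog and Myf5 below the median on all arrays. Cartilage and bone markers summed to 357 to 476 in treated and 620 to 669 in control cultures, with 0 of 5 tested higher and 3 lower (Sox9, Col2a1 and Comp). Endothelial markers summed to 591 to 681 in treated and 473 to 564 in control cultures, with 2 of 6 tested higher (Cdh5 and Esam) and 1 lower (Tek), and Pecam1, Tie1 and Vwf below the median on all arrays. The calls of Cdh5, Tek and Comp were lost on leaving out single arrays: Cdh5 without any but control replicate 2 (adjusted p from 0.0749 to 0.127), Tek without treated replicate 1 or 3 or control replicate 1 or 3 (0.0802 to 0.112), and Comp without any but treated replicate 1 (0.0721 to 0.105). The part of these cells in the changes of the Mmps and Timps was not tested.

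The 3 Timps moved in different directions. Timp1, a secreted inhibitor that is induced by growth factors and cytokines, read 6502, 5060 and 5976 in treated and 2472, 2381 and 2399 in control cultures. Control values lay within 1.04 times of each other and all treated values were above them. The mean was 2.42 times that of controls, with a log2 change of 1.26 ± 0.095 (SE, n = 3 each; limma adjusted p = 9.13e-06), and 3.64% of tested genes had a higher change. Timp3, which binds to the matrix and also inhibits Adam and Adamts proteases, read 2041, 1994 and 1837 in treated against 3981, 4131 and 4505 in control cultures. The log2 change was -1.10 ± 0.080 (SE; adjusted p = 7.36e-06).

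The 4 probe sets of Timp3 were all called lower, with log2 changes from -1.10 to -0.42. The smallest, from its dimmest probe set, had an adjusted p of 0.0285, and its call was lost without treated replicate 3 (-0.32, adjusted p = 0.0981), control replicate 1 (-0.32, adjusted p = 0.0997) or control replicate 2 (-0.39, adjusted p = 0.0789), without scaling (adjusted p = 0.124), with no filter (0.0536) and with no intensity trend (0.0761).

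Timp2, the inhibitor that couples Mmp14 to pro-Mmp2, was read differently by its probe sets. The brightest read 7184, 6664 and 6363 in treated against 4536, 4977 and 4935 in control cultures, with no overlap and a log2 change of 0.48 ± 0.078 (SE, n = 3 each; limma adjusted p = 0.000967). The next brightest read 4464, 3748 and 4300 against 4356, 4097 and 4887, and its groups overlapped. The 4 other tested probe sets had log2 changes from -0.09 to 0.10, and 0 of them were called, with adjusted p-values from 0.488 to 0.9495. The 95% interval of the brightest was 0.31 to 0.66, and those of the 4 others together spanned -0.31 to 0.39. Within each array the brightest probe set exceeded the mean of these 4 by 1.24 ± 0.13 log2 units in treated and 0.76 ± 0.056 in control cultures (SD, n = 3 each; two-sided exact permutation p = 0.1, again the smallest possible). The comparison of probe sets was chosen after their values were seen. The call of Timp2 as higher therefore rests on a single probe set, and without scaling that one missed the threshold (0.41, adjusted p = 0.0791).

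The treated arrays differed among themselves. Treated replicate 2 was the lowest treated array for 7 of the 10 genes, Mmp2, Mmp3, Mmp9, Mmp10, Mmp13, Mmp14 and Timp1, while 32.2% of all tested probe sets were lowest there. The highest treated array was not shared: it was replicate 1 for Mmp9, Mmp14, Timp1, Timp2 and Timp3, replicate 2 for Mmp11 and replicate 3 for Mmp2, Mmp3, Mmp10 and Mmp13. No test was made of this order.

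Of 16 other Mmp genes listed, 11 were on the array and 6 were tested, 1 higher (Mmp8, of the chromosome 9 cluster) and 3 lower. The 5 tested outside the cluster were Mmp16, Mmp17, Mmp19, Mmp23 and Mmp24, of which 0 were called higher. Mmp23, a membrane-bound member, read 326, 294 and 350 in treated against 789, 791 and 716 in control cultures, a log2 change of -1.22 ± 0.099 (SE; limma adjusted p = 1.40e-05), and its other probe set gave -1.93. Mmp19 changed by -0.85 ± 0.25 (adjusted p = 0.0223) and by -1.44 at its other probe set, and the membrane-anchored Mmp16 by -0.67 ± 0.21 (adjusted p = 0.0270). Another tested probe set of Mmp16 was not called (-0.62, adjusted p = 0.0601). Those of Mmp16 below the filter were not called in the fit with no filter (-0.49 and -0.28, adjusted p = 0.531 and 0.614). The call of Mmp19 was lost without treated replicate 1 (adjusted p = 0.0668), control replicate 1 (0.0852) or control replicate 3 (0.0580), and that of Mmp16 without treated replicate 1 (0.0834) or 3 (0.0856) or control replicate 1 (0.0972) or 2 (0.0709). Mmp17 (0.06, adjusted p = 0.844) and the brightest probe set of Mmp24 (-0.24, adjusted p = 0.680) were not called, but a dimmer probe set of Mmp24 read 5.57, 21.8 and 9.96 in treated against 67.2, 100.02 and 72.6 in control cultures (-2.07, adjusted p = 0.00198).

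Among other inhibitors of Mmps, Reck, a membrane-anchored inhibitor of Mmp2, Mmp9 and Mmp14, read 263, 256 and 253 in treated and 778, 728 and 901 in control cultures. The groups did not overlap, and the log2 change was -1.60 ± 0.10 (SE; limma adjusted p = 3.32e-06). The plasma protease inhibitor A2m was higher (0.82, adjusted p = 0.0459), a call that was lost on leaving out any treated replicate (adjusted p from 0.0997 to 0.106) or control replicate 2 (0.0503) or 3 (0.108). Timp4 changed by -0.08 (adjusted p = 0.934), with a standard error of 0.63.

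Plasmin can activate several pro-Mmps, and genes of plasminogen activation moved in both directions. Of 8 listed 5 were tested, 2 higher and 1 lower, with a median log2 change of 0.31. The shares over all tested genes were 19.5% higher and 21.6% lower. Plaur, the receptor that holds urokinase at the cell surface, read 1837, 1908 and 1576 in treated against 150, 181 and 211 in control cultures, a log2 change of 3.24 ± 0.13 (SE; limma adjusted p = 2.24e-07). Serpinb2, an inhibitor of plasminogen activators, read 838, 799 and 917 against 19.2, 11.4 and 17.7 (5.07 ± 0.16; adjusted p = 5.68e-08). Both were far apart between groups. The tissue activator Plat fell to 834, 614 and 870 in treated cultures, against 1795, 1655 and 1485 in control cultures (-1.09; adjusted p = 0.000192), and urokinase itself, Plau, was dim and not called (0.31, adjusted p = 0.379).

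Of 8 genes for proprotein convertases and surface partners of Mmps, all tested, 4 rose and 1 fell. Cd44, a hyaluronan receptor that can hold Mmp9 and Mmp14 at the surface, changed by 1.76 ± 0.086 (SE; limma adjusted p = 6.17e-07), and Furin, which cleaves the propeptide of Mmp11 and Mmp14, by 0.68 ± 0.14 (adjusted p = 0.00377, and 0.0807 without scaling). Pcsk5, another convertase, changed by -0.95 ± 0.21 (adjusted p = 0.00633). The count that rose was 2 without treated replicate 1 or 2 or control replicate 1, where the calls of Itgav (0.31 over all arrays) and Pcsk7 (0.42) were lost (adjusted p from 0.0636 to 0.141). A dimmer probe set of Itgav was called higher over all arrays (0.69; limma adjusted p = 0.00226), and another tested one was not called (0.43; adjusted p = 0.0608).

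Genes of collagen turnover and Mmp clearance were mixed, with 3 of 10 tested higher and 5 lower and a median of -0.37. The collagen-cutting cathepsin Ctsk read 1069, 778 and 1279 in treated against 2253, 1987 and 2141 in control cultures (-1.05 ± 0.16, SE; limma adjusted p = 0.000593), and the collagen uptake receptor Mrc2 changed by -0.75 ± 0.16 (adjusted p = 0.00431). Thbs2, which is known to promote the clearance of Mmp2, changed by -0.85 ± 0.15 (adjusted p = 0.00180). The lysosomal cathepsins Ctsb (0.69 ± 0.076; adjusted p = 9.78e-05) and Ctsl (0.39 ± 0.081; adjusted p = 0.00420, and 0.188 without scaling) were higher. The third riser, the endocytic receptor Lrp2 (0.56), lost its call without treated replicate 1 (adjusted p = 0.124) or 3 (0.157) or control replicate 1 (0.147) or 2 (0.0786).

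Transcription factors of the AP-1 and Ets families split evenly, with 5 of 15 tested higher and 5 lower. Fosl1, a Fos-family subunit of AP-1, read 494, 462 and 484 in treated against 111, 120 and 102 in control cultures. Values within each group were close, and the log2 change was 2.02 ± 0.11 (SE; limma adjusted p = 1.28e-06). The small Maf proteins Maff (1.96 ± 0.15) and Mafk (1.40 ± 0.12) and Ets1 (1.04 ± 0.12) also rose, and Maf fell (-3.36 ± 0.18; adjusted p = 1.20e-06).

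The immediate early genes of AP-1, named here after their values were seen, varied among controls. Fos read 566, 1323 and 1743 in treated and 1261, 5155 and 7306 in control cultures, so that the groups overlapped, and its call as lower (-1.72, adjusted p = 0.0461) was lost without treated replicate 1 (adjusted p = 0.157) or 2 (0.0647) or control replicate 2 (0.134) or 3 (0.162). Jun read 834, 697 and 743 in treated against 342, 799 and 1420 in control cultures (0.05, adjusted p = 0.939). The count of factors called lower, 5 over all arrays, was 2 without treated replicate 1 and 3 without treated replicate 2 or control replicate 2 or 3.

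The list of cytokines that induce Mmps, with their receptors, an antagonist and NF-kB components, had 10 of 16 tested genes higher and 3 lower, with a median log2 change of 0.87. Over all tested genes 19.5% were higher and 21.6% lower. The 3 that fell were the receptors Il1r1 and Osmr and the receptor antagonist Il1rn, and those that rose included the NF-kB subunit Rela and its inhibitor Nfkbia. The call of Il1rn at its brightest probe set was lost on leaving out any array but treated replicate 2 (adjusted p from 0.0695 to 0.0970). Its other probe sets, which passed the filter through control arrays alone, were lower with no overlap (-3.14 and -1.70; limma adjusted p = 8.47e-06 and 0.000165). The call of Rela was lost without treated replicate 2 (0.0700) or 3 (0.131) or control replicate 1 (0.110) or 2 (0.116). Il1a, an inducer of stromelysins and collagenases in fibroblasts, read 104, 117 and 160 in treated against 6.73, 12.2 and 8.55 in control cultures (2.85 ± 0.30, SE; limma adjusted p = 7.35e-05). All treated values were above all controls, and Il1a, like Serpinb2, passed the filter through treated arrays alone. The ligands of the EGF receptor Hbegf (2.86 ± 0.16; adjusted p = 1.28e-06) and Ereg (2.59 ± 0.21; adjusted p = 1.25e-05), and Tgfb2 (1.72 ± 0.15) and Tgfb1 (0.95 ± 0.12), were also higher. Il1r1, the receptor of Il1a, was named after its values were seen. It read 180, 45.0 and 216 in treated against 1295, 1135 and 1228 in control cultures, a log2 change of -3.21 ± 0.43 (adjusted p = 0.000330).

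**Figure D5:**
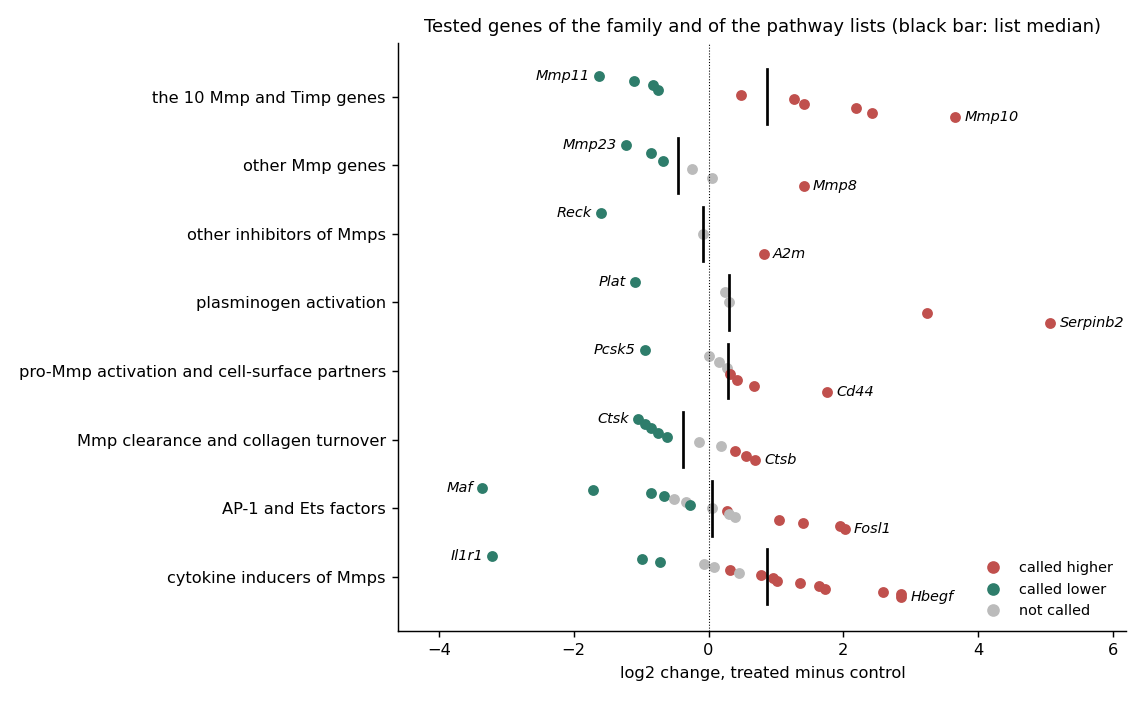
Log2 change, treated minus control (horizontal axis), of the tested genes in the family and in 7 lists of related genes, coloured by call, with list medians as black bars and the lowest and highest gene of each list named. The 10 family genes run from -1.62 (Mmp11) to 3.66 (Mmp10), and the cytokine list runs from -3.21 (Il1r1) to 2.86 (Hbegf).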

How the data were processed

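RNA of 6 cultures, 3 treated and 3 control, was measured with 1 Affymetrix array each. The deposited values are signal intensities per probe set, computed with MAS5 per the submitters' processing notes; for its version, target intensity and detection calls the sources used here give nothing. Each array was scaled to a 2% trimmed mean of 193.2 over the 45037 probe sets that are not controls, and log2(signal + 9.66) was taken, the pseudocount being 0.05 of that mean. A probe set was tested if it exceeded its array's median on at least 3 of 6 arrays (23388 were), so some passed through 1 group alone. Groups, from the titles, were compared with limma 3.58.1 (lmFit, eBayes with an intensity trend, two-sided) in R 4.3.3, with Benjamini-Hochberg adjustment over all tested probe sets. P-values measure the spread between these cultures, and precision is limited by having 3 arrays a group.

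The platform annotation named 1 gene for 34945 probe sets, several for 932 and none for 9160; those with several named no gene. The brightest tested probe set represented a gene. All 10 family genes were named, with up to 5 genes of the smallest p per list, the tested Mmp genes and the cluster with its flanks; others were chosen after their values were seen. Members, lists and tests were chosen with earlier results of these data known. The procedure was tested on simulated data. Gene order and promoters came from RefSeq, GRCm38.p6; the sources used here name no build for the array annotation. Promoters and motifs were examined after the values were seen. Same-numbered treated and control arrays deviated from their group means with correlations of 0.186, 0.172 and 0.072, and the labels do not say that a number marks a shared explant, so the number was not a term of the fit. Alternatives covered scaling, pseudocount, filter, trend, replicate block, probe set choice and leaving out each array.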

Additional observations from a re-analysis of the deposited data

How the results depend on the processing

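Of 150 values of the 10 genes under 15 alternatives each, 148 kept their direction and their side of the threshold. The exceptions were both of Timp2: 0.41 (adjusted p = 0.0791) without scaling, and -0.01 (as written, -0.0078) when its dimmest tested probe set was used in place of the brightest; 5 genes of the family were then called higher in each of these settings, against 6 in every other, and 4 were lower throughout. The 4 uncalled Timp2 probe sets changed sign in places, with values of -0.0530 without scaling and -0.1080 after quantile normalization for the one with a shared-probe name. The quantile-normalized value of another, -0.24, passed the threshold (adjusted p = 0.0146). On leaving out 1 array the 4 ranged from -0.1493 to -0.0174, from -0.0460 to 0.1284, from -0.0188 to 0.2083 and from -0.0508 to 0.0269; those that changed sign gave 0.0019, 0.0236, 0.0006 and 0.0269, -0.0203, -0.0460 and -0.0133, and -0.0004 and -0.0188. The cause was not tested. Without scaling, 1977 probe sets were called higher and 3042 lower, against 4297 and 4743 after scaling. Over the lists together, 18 to 27 genes were called higher (26 in the setting reported) and 14 to 20 lower (19), not always the same ones, and 28 of 196 single list counts moved by more than 1.5 times. With the replicate number as a block, 4575 probe sets were higher and 4966 lower, and the block changed no call of the 10 genes. Each array's deviations from its group mean correlated best with those of its own number in the other group, a hint from the data only.

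Without detection calls, signals below the array median, as for Mmp10 on all controls and Mmp13 on 2 of 3, could not be separated from background, and the pseudocount moved the log2 change of Mmp10 between 3.13 and 3.86.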
